A study of Homo sapiens with 3 samples.

Results

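The NRG1 locus was examined as a plus-strand interval of chromosome 8, chr8:31497351-32574522 in hg19, in which peaks of CSTF2tau-bound RNA were listed. NRG1 carries the gene ID ENSG00000157168. The interval was chosen by measured values: it runs from the first to the last peak of that ID in replicate 1, where the ID ranked 2 of 11152 by reads. Its 5' lean in that replicate was also known when it was chosen. Its share of reads and its 5' lean in replicate 1 are therefore given as descriptions, with no test. Every plus-strand peak inside the interval was counted, whatever its gene ID. This gave 1590 of the 202310 listed peaks. Replicate 1 contributed 1442 of its 105203 peaks, replicate 2 contributed 54 of 18346, and replicate 3 contributed 94 of 78761.

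All 3 libraries came from BE(2)-C, an established human neuroblastoma cell line, labelled wild type (WT), with no treatment named. They form 1 group of 3 biological replicates. In sCLIP, ultraviolet light fixes proteins to the RNA they touch in living cells, and an antibody, here against CSTF2tau, pulls out the fragments that are then sequenced. Markers of the cell line could not be matched to the gene IDs of the files, so its identity was not checked here. No input library was used here, so the amount of NRG1 RNA and the extent of binding to it cannot be told apart. The files hold peaks, each with a count that was read as its reads. Listed reads totalled 736059, 108434 and 387784 in replicates 1, 2 and 3, which are reads within listed peaks and not the sequencing depth.

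NRG1 encodes neuregulin 1, a growth factor of the EGF family that binds the receptors ERBB3 and ERBB4. It is best known in the nervous system for driving the survival and growth of Schwann cells, which, like the sympathetic lineage from which neuroblastoma arises, come from the neural crest. The gene is very long, with several promoters and large introns, and RefSeq's GRCh38 gene table places the non-coding genes NRG1-IT1 and NRG1-IT3 inside it. CSTF2tau is a paralogue of CSTF2. Either protein can serve as the subunit of the cleavage stimulation factor that touches RNA, at GU-rich sequence past the point where a transcript is cut and polyadenylated. No hg19 annotation was used here, so peaks are given by position, not as exon, intron or UTR.

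In replicate 1, CSTF2tau peaks were scattered along most of the interval, densely on its 5' side and thinly beyond the middle, and together covered 7.09% of its bases. In replicates 2 and 3, the same interval carried peaks in 2 inner stretches only. Overlapping peaks were merged into clusters, with reads taken from the gene ID that listed the most. Replicate 1 had 1285 clusters with 12395 reads, replicate 2 had 54 clusters with 444 reads, and replicate 3 had 94 clusters with 558 reads. In replicate 1 these made up 1.68% of listed reads (95% exact interval 1.65 to 1.71%). The share was 0.409% in replicate 2 (0.372 to 0.449%), and replicate 3 had 0.144% (0.132 to 0.156%). The mean was 0.746% ± 0.823 (SD, n = 3), and without replicate 1 it was 0.277%, so the mean rests on that library. All intervals cover counting error only, since the reads of a peak need not be independent molecules. All clusters of a replicate share 1 library, and the tests below cover the spread of these 3 libraries only.

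**Figure D1:**
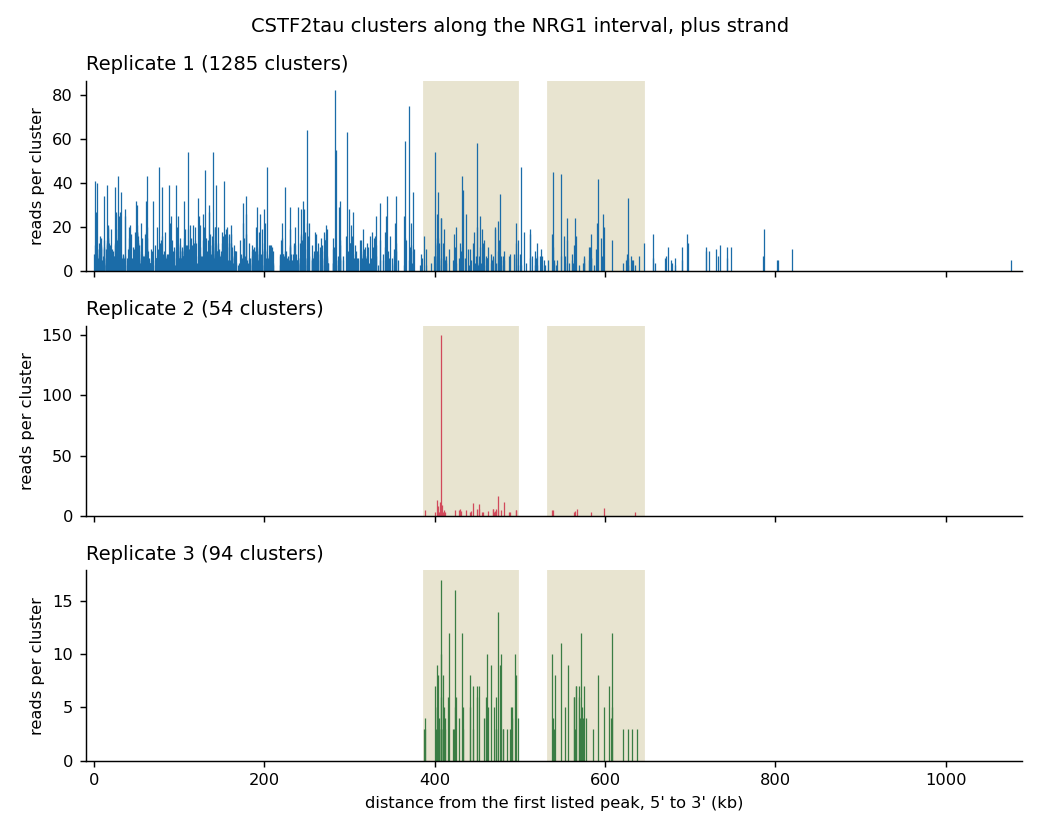
Reads per cluster (y axes, each with its own scale) against the distance in kb from the first listed peak (x axis), with 1 vertical line per cluster and 1 panel per replicate; shading marks the 2 stretches that carry peaks in all 3 replicates. Replicate 1 has 1285 clusters, of which 6 lie in the last 3 of 10 equal parts of the interval. The 54 clusters of replicate 2 and the 94 of replicate 3 lie inside the shading. Its limits are the outermost peaks of 2 gene IDs over all 3 replicates. The 5' limit of the first stretch came from replicate 3, and the other limits came from replicate 1.

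The replicates differed in the gene IDs under which peaks were listed. Peaks of the interval carried 4 IDs. ENSG00000157168 itself had 1268 peaks with 12252 reads in replicate 1 and was listed with 0 peaks in replicates 2 and 3. ENSG00000253974 was listed in every replicate, with 115 peaks and 1247 reads in replicate 1, 46 peaks and 408 reads in replicate 2, and 63 peaks and 374 reads in replicate 3. ENSG00000253222 was also listed in every replicate, with 57, 8 and 31 peaks and 631, 36 and 184 reads in replicates 1, 2 and 3. ENSG00000254049 had 2 peaks of 5 reads each, in replicate 1. The files pair none of these IDs with a name. ENSG00000157168 is the Ensembl ID known for NRG1, and the other 3 are given as IDs only.

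The spans of ENSG00000253974 and ENSG00000253222 over the 3 replicates define the 2 stretches where replicates can be compared. The first, chr8:31884659-31994967, is 110.3 kb long and begins 387.3 kb from the 5' end of the interval. The second, chr8:32030436-32143384, is 112.9 kb long and begins at 533.1 kb. The 35.5 kb between them held 22 clusters and 211 reads in replicate 1, and 0 clusters in replicates 2 and 3. In all, 1115 clusters of replicate 1 with 10500 reads, 84.7% of its reads in the interval, lay outside both stretches, where replicates 2 and 3 list nothing.

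The edges of the stretches are the outermost peaks of these 2 IDs over the 3 replicates. Replicates 2 and 3 list no other ID in the interval, so they have no peak beyond the edges by definition. Replicate 1 had clusters on both sides of each edge. At the 5' edge of the first stretch it had 38 clusters and 439 reads in the 30 kb inside, and 24 clusters and 355 reads in the 30 kb outside. At the 3' edge of the first stretch it had 26 clusters inside and 19 outside. At the 5' edge of the second it had 20 inside and 19 outside, and at its 3' edge, where signal was thin, 13 inside and 6 outside. Whether peaks of ENSG00000157168 were left out of the lists of replicates 2 and 3 was not tested.

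The peaks of replicate 1 thinned along the interval. Cut into 10 equal parts of 107.7 kb, 5' to 3', its reads numbered 4138, 2900, 2125, 1410, 961, 609, 201, 46, 0 and 5. Part 1 thus held 33.4% of the reads and parts 1 to 3 together 73.9%, while parts 8 to 10 held 0.411%. There were 45.3 clusters per 10 kb in part 1, 19.2 in part 3 and 5.01 in part 6. Reads per cluster did not follow the same course: the mean was 8.48 reads in part 1, 9.73 in part 2, 10.3 in part 3, 11.8 in part 4, 10.8 in part 5 and 11.3 in part 6. The mean of part 1, where clusters were densest, was the lowest of the 6.

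Measured along the interval, 25% of the replicate 1 reads lay within 80.1 kb of the 5' end, 50% within 176.6 kb and 90% within 477.1 kb. Clusters were close together, with a median gap of 0.169 kb, and the widest gap, 257.4 kb, separated the last cluster from all others. That last cluster, chr8:32574467-32574522, had 5 reads, and the first, chr8:31497351-31497420, had 8. Outside the interval the nearest plus-strand peak upstream in replicate 1 was 466.2 kb away, with 14 reads, and the nearest downstream was 50.8 kb away, with 3 reads. On the minus strand, 0 peaks were listed over the interval in each of the 3 replicates.

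No single site dominated replicate 1. Its highest cluster, chr8:31780260-31780396, had 82 reads, 0.662% of the interval's reads, and ranked 34 of 99658 clusters in the library. The next were chr8:31866862-31867015 with 75 reads and chr8:31747320-31747476 with 64. All 3 lie outside the 2 stretches. The 10 highest clusters together held 4.99% of the interval's reads. Clusters were 57 nt wide in the median, and 9.65% of them had 20 or more reads, against 3.55% of all clusters of replicate 1. In replicate 2 it was 1 of 54 NRG1 clusters (1.85%) against 2.06% of the library, and in replicate 3 it was 0 of 94 (0%) against 0.629%. These counts are too low to tell whether NRG1 differed from those libraries by this measure. Because the interval was chosen by its reads in replicate 1, the excess there is a description only. Of the 124 high clusters of replicate 1, 87 (70.2%) lay in parts 1 to 3, against 77.3% of all its NRG1 clusters.

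Within the 2 stretches all replicates had signal, and the first stretch carried more than the second in each. In the first stretch, clusters held 1264, 408 and 374 reads in replicates 1, 2 and 3, or 11.5, 3.70 and 3.39 reads per kb. In the second they held 631, 36 and 184 reads, or 5.59, 0.319 and 1.63 reads per kb. The reads per kb of the first stretch were thus 2.05 times those of the second in replicate 1 and 2.08 times in replicate 3, but 11.6 times in replicate 2. Of the reads in both stretches together, the first held 66.7% in replicate 1 (exact interval 64.5 to 68.8%). It held 91.9% in replicate 2 (89.0 to 94.3%), and 67.0% in replicate 3 (63.0 to 70.9%). The intervals of replicates 1 and 3 overlap, and that of replicate 2 lies above both. Without its largest cluster, replicate 2 had 87.8% (83.5 to 91.3%).

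As a share of the library, both stretches together held 0.257% of listed reads in replicate 1 (exact interval 0.246 to 0.269%), 0.409% in replicate 2 and 0.144% in replicate 3. The mean was 0.270% ± 0.133 (SD, n = 3). The order of replicates therefore changes when the interval is limited to what all 3 lists cover: replicate 1 is highest over the whole interval, and replicate 2 is highest over the stretches. Without its largest locus, the share of replicate 2 was 0.271%, against 0.257% in replicate 1. Most of the lead of replicate 2 over the stretches thus came from that 1 locus. The mean without that locus was 0.223% ± 0.0724 (SD, n = 3). By reads, ENSG00000253974 was at rank 50 among 11152 gene IDs in replicate 1, at rank 21 among 5173 in replicate 2, and at rank 90 among 10788 in replicate 3. ENSG00000253222 was at ranks 138, 558 and 294.

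**Figure D2:**
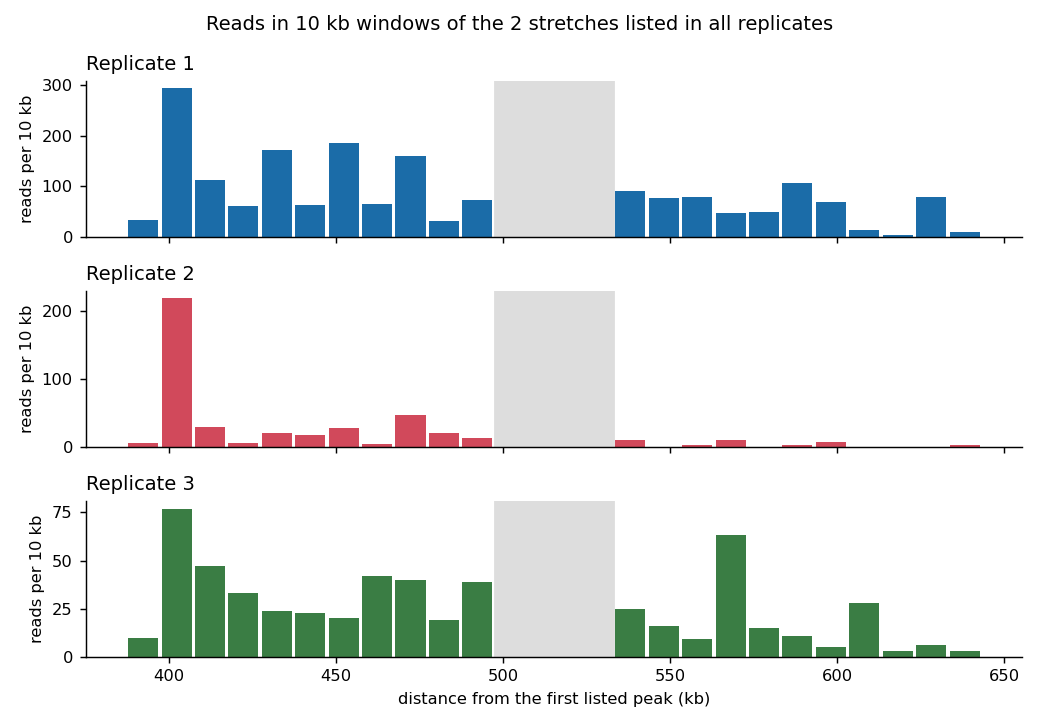
Reads in 10 kb windows (bars; y axes, each with its own scale) against the distance in kb from the first listed peak (x axis) over the 2 stretches, with 1 panel per replicate; the grey band is the part between them. In all 3 replicates the tallest window starts at 397.3 kb, with 293, 219 and 77 reads in replicates 1, 2 and 3.

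The same window of 10 kb led in every replicate. It starts 397.3 kb into the interval and held 293 reads in 21 clusters in replicate 1, 219 reads in 12 clusters in replicate 2 and 77 reads in 11 clusters in replicate 3. Over the 22 windows of both stretches the medians were 70, 6 and 21.5 reads. Across those windows the Spearman correlation of reads was 0.55 between replicates 1 and 2, and 0.60 between replicates 2 and 3. Between replicates 1 and 3 it was 0.36. These are descriptions over neighbouring windows of the same libraries, with no test.

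Inside the leading window lies the highest cluster of replicate 2. The 86 nt locus chr8:31904461-31904546, listed under ENSG00000253974, had 150 reads in replicate 2 and 17 reads in replicate 3, with 0 peaks listed in replicate 1. Its 150 reads were 33.8% of the interval's reads in replicate 2 and 8.82 times those of the next cluster. It ranked 3 of the 17069 clusters of that library and 1 among those outside the mitochondrial chromosome. In replicate 3 it was also the highest cluster of the interval, though only 1.06 times the next. The centres that the authors give for the peak were 1 nt apart in these 2 replicates.

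Replicate 1 listed clusters on each side of that locus but not on it. Under ENSG00000157168, its nearest peaks ended 140 nt before the locus and began 318 nt after it, each with 24 reads. Running numbers in the peak names increase with position under both IDs, and 1 number between those 2 peaks has no listed peak, under ENSG00000157168 and under ENSG00000253974 alike. What that number stood for was not given in the sources used here.

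Merged over the replicates, the interval held 1366 loci. Of these, 15 had a cluster from every replicate, another 34 had clusters from 2 of them, and 1317 came from a single replicate, 1240 of these from replicate 1. Such counts of loci are not given for the whole series. By clusters, 15.3%, 35.4% and 16.9% of the whole series overlapped another replicate in replicates 1, 2 and 3. For NRG1 clusters the values were 3.50%, 63.0% and 39.4%. Within the 2 stretches there were 251 loci. The 49 present in more than 1 replicate lie there by definition, since replicates 2 and 3 have no peak elsewhere in the interval. The first stretch held 13 of the 15 loci found in every replicate, and 167 of the 251 loci of both stretches. The shared loci of exactly 2 replicates were 13 for replicates 1 and 2, 17 for replicates 1 and 3, and 4 for replicates 2 and 3. With replicate 1 left out 19 loci were shared, without replicate 2 there were 32, and without replicate 3 there were 27.

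**Figure D3:**
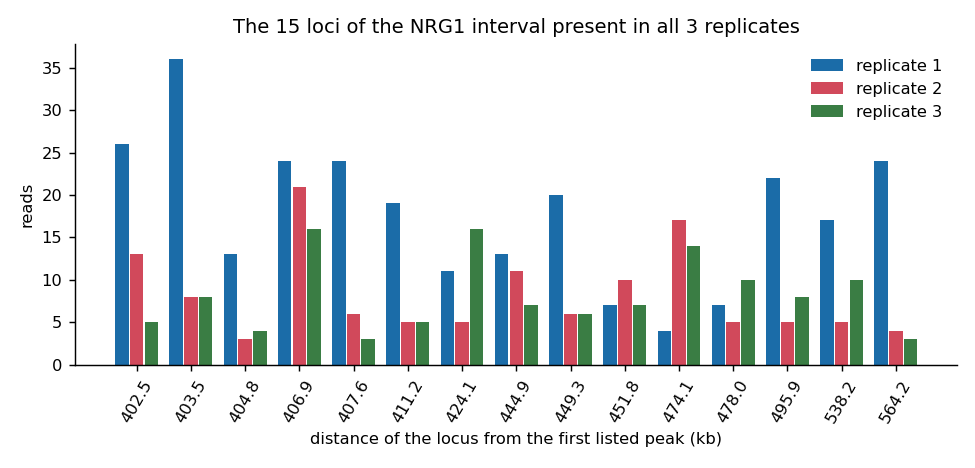
Reads (y axis) in replicates 1, 2 and 3 (bars) at each of the 15 loci present in all 3 replicates, ordered 5' to 3' by distance in kb from the first listed peak (x axis). Reads range from 4 to 36 in replicate 1, from 3 to 21 in replicate 2 and from 3 to 16 in replicate 3. They are summed where a replicate has more than 1 cluster at a locus.

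Reads at the 15 loci ran from 4 to 36 in replicate 1, with a median of 19, from 3 to 21 in replicate 2, with a median of 6, and from 3 to 16 in replicate 3, with a median of 7. Replicate 2 had the highest share of its library at all 15. Its total is the smallest, however, and a listed peak has at least 3 reads. A peak of 3 reads is 0.00277% of replicate 2, but 4.1e-04% of replicate 1 and 7.7e-04% of replicate 3. Orders and fold ranges of shares at these loci therefore depend on the library totals as well as on the reads. The locus with the highest mean share, chr8:31904163-31904366, had 24 reads in replicate 1, 21 in replicate 2 and 16 in replicate 3. It is not a single peak in every replicate. Its reads were summed over adjoining clusters, of 8, 5 and 8 reads in replicate 2 and of 6 and 10 in replicate 3. Each of these overlapped the cluster of replicate 1, which joined them into 1 locus. The locus lies just upstream of the 150-read locus of replicate 2, and its share of listed reads averaged 0.00892% ± 0.00906 (SD, n = 3). The highest share, in replicate 2, was 5.94 times the lowest, in replicate 1.

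The other 4 leading loci varied widely in how evenly the replicates shared them. At chr8:31971354-31971456 there were 4 reads in replicate 1, 17 in replicate 2 and 14 in replicate 3, a 28.8-fold range of shares. At chr8:31899785-31899938 there were 26, 13 and 5 reads in replicates 1, 2 and 3. The most even of the 5 leading loci was chr8:31900814-31900929, with 36, 8 and 8 reads and a 3.58-fold range of shares. Its peak centres agreed closely, 2 nt apart between replicates 1 and 2, and 1 nt apart between replicates 1 and 3. At chr8:31942177-31942308 there were 13, 11 and 7 reads.

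Of the loci in exactly 2 replicates, the 150-read locus had the highest mean share. At chr8:31978164-31978267 there were 9 reads in replicate 1 and 12 in replicate 2, and at chr8:31966123-31966249 there were 7 and 6. At chr8:32036517-32036648, the only one of these 5 in the second stretch, there were 45 reads in replicate 1 and 5 in replicate 2, shares within 1.33-fold of each other. At chr8:31929662-31929814 there were 43 reads in replicate 1 and 12 in replicate 3. The 2 highest clusters of replicate 1 within the stretches, chr8:31947196-31947334 with 58 reads and chr8:31897245-31897377 with 54, had no listed peak in replicates 2 or 3; these 2 were picked after their values were seen. Replicate 3 had its second highest cluster, 16 reads, at chr8:31921348-31921436, where replicates 1 and 2 had 11 and 5 reads.

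Where loci were shared, peak centres lay at most 104 nt apart, at chr8:31904163-31904366. In each replicate the centre of the cluster with the most reads was used. Loci were joined by overlap, so short distances follow in part from their definition. The median distance was 21.5 nt over 28 loci of replicates 1 and 2, 22.5 nt over 32 loci of replicates 1 and 3, and 15 nt over 19 loci of replicates 2 and 3. Centres were within 10 nt of each other at 7, 12 and 5 of these. Across these loci, reads gave a Spearman rho of 0.12, 0.24 and 0.60 for the 3 pairs, the last including the 150-read locus.

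The next comparison asked whether positions in the NRG1 interval were shared between replicates more often than elsewhere. The choice of the interval did not use this measure itself, but the 2 are not independent. It was known that the NRG1 ID is listed in replicate 1 only, and 1115 of the 1285 clusters of replicate 1 lay where the other lists have no peak. Those could not be shared. The interval was also chosen on its reads in replicate 1, whose clusters replicates 2 and 3 can share. The part of this choice in the result was not tested. In replicate 1, 45 of 1285 NRG1 clusters (3.50%, exact interval 2.57 to 4.66%) had a base in common with some cluster of the other replicates, against 15.5% of clusters in the rest of the series. Replicate 2 shared 34 of its 54 NRG1 clusters (63.0%, 48.7 to 75.7%), against 35.3%. Replicate 3 shared 37 of 94 (39.4%, 29.4 to 49.98%), against 16.8%. Over all clusters of each library, NRG1 included, the share was 15.3%, 35.4% and 16.9%. NRG1 minus the rest averaged 12.7 percentage points ± 21.5 (SD, n = 3; exact two-sided sign-flip permutation test, p = 0.5, smallest possible p 0.25), with replicate 1 opposite in sign to the other replicates. This test cannot decide the question, because most clusters of replicate 1 could not be shared. An overlap also counts in both of its replicates, so the 3 differences are not independent. With 1 replicate left out, sharing was counted anew between the remaining 2. The mean difference was then 18.5 without replicate 1, 5.42 without replicate 2 and 12.8 without replicate 3.

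Replicate 1 can share positions only where the other lists have peaks. Within the 2 stretches, 45 of its 170 clusters were shared (26.5%, exact interval 20.01 to 33.8%). This limit was set after the lists had been seen and keeps only ground where the other lists have peaks, so the rest of the series was limited likewise, to the spans of gene IDs listed in all 3 replicates. There, 18.1%, 36.5% and 20.8% of clusters were shared in replicates 1, 2 and 3. NRG1 was higher in 3 of 3 replicates, by 8.37, 26.5 and 18.6 percentage points. These 3 differences are not independent results, since an overlap between 2 replicates counts in both, and the test below does not allow for that. The mean was 17.8 ± 9.07 (SD, n = 3; exact two-sided sign-flip permutation test, p = 0.25, the smallest that 3 replicates allow). With the rest not limited, the mean was 20.4 ± 8.52, a comparison that limits NRG1 alone. The design thus cannot pass a threshold of 0.05. Clusters lie close together here, 10.3 per 10 kb in the first stretch in replicate 1, and the part of this density in the sharing was not tested.

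**Figure D4:**
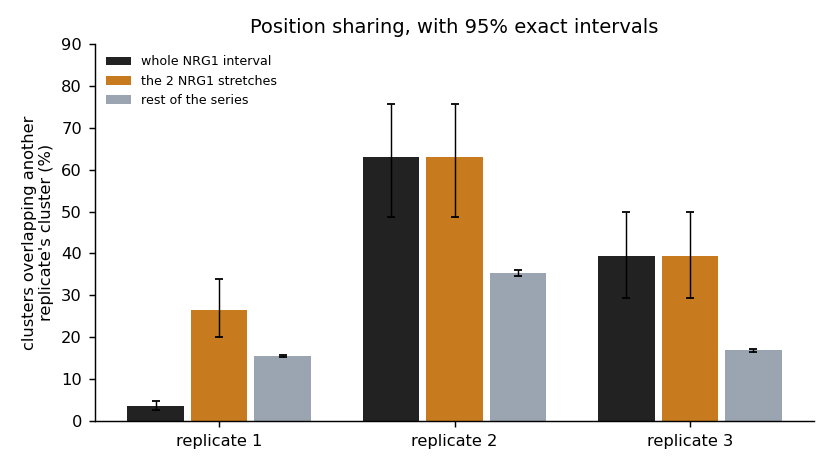
Percentage of clusters that overlap a cluster of another replicate (y axis) in each replicate, for the whole NRG1 interval, its 2 stretches and the rest of the series without limit (bars from left to right; error bars are exact 95% intervals for counting error). Replicate 1 has 3.50% over the whole interval and 26.5% within the stretches, while replicates 2 and 3 are the same in both because all their clusters lie in the stretches.

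ENSG00000204442 and ENSG00000185565, long regions with shares of reads like that of NRG1 in replicate 1, were set beside it, with no test. ENSG00000204442 lies at chr13:107821338-108518283 and ENSG00000185565 at chr3:115521383-117715978, both on the minus strand. The NRG1 stretches had 26.5%, 63.0% and 39.4% of clusters shared in replicates 1, 2 and 3, against 46.1%, 60.4% and 54.0% in ENSG00000204442 and 33.4%, 54.4% and 41.6% in ENSG00000185565. NRG1 was thus below both in replicates 1 and 3 and above both in replicate 2. These regions were listed under their own IDs in every replicate, with 1390, 351 and 625 peaks for ENSG00000204442 and 1137, 353 and 688 for ENSG00000185565. Over its whole span, NRG1 held 1.68% of the reads of replicate 1, against 1.76% and 1.46%. In replicate 2 its 0.409% stood against 2.55% and 2.04%, and in replicate 3 its 0.144% stood against 1.59% and 1.32%. These are not like for like: replicates 2 and 3 list nothing under ENSG00000157168, so their NRG1 values cover the 2 stretches only. The other regions are counted over their full spans. All 3 regions had 0 clusters on the opposite strand in every replicate.

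**Figure D5:**
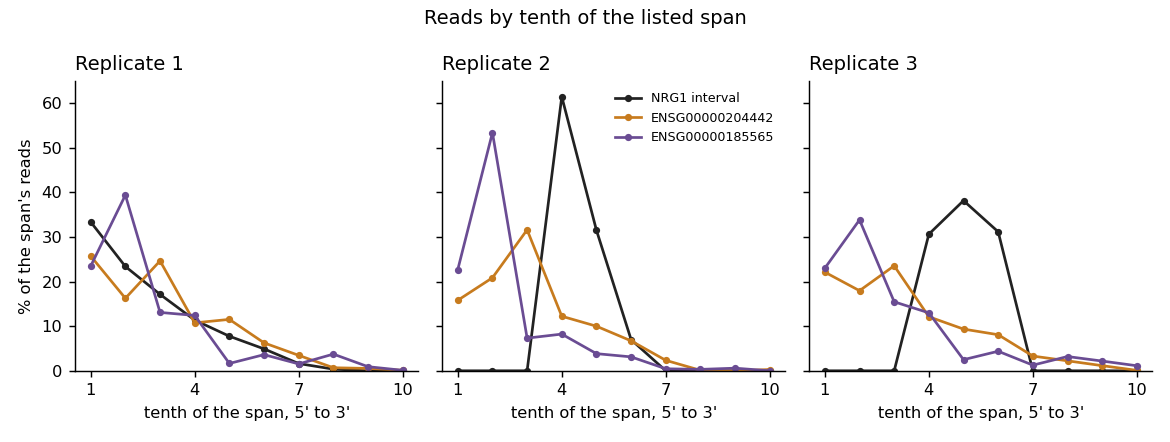
Percentage of each span's reads (y axis) in 10 equal parts, 5' to 3' (x axis), for the NRG1 interval and the spans of ENSG00000204442 and ENSG00000185565, with 1 panel per replicate. In replicate 1 NRG1 declines from 33.4% in part 1, and in replicates 2 and 3 its reads lie only in parts 4 to 6.

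Profiles along the span were compared with those of 60 gene IDs whose listed span was at least 500 kb and held at least 500 reads. The distance between profiles is the percentage of reads that would have to move to another part to make them equal. By the mean profile over replicates, the closest were ENSG00000182621 at 23.9%, ENSG00000186487 at 24.4%, ENSG00000184903 at 25.3%, ENSG00000067715 at 31.0% and ENSG00000171094 at 31.2%, against a median of 57.5% over the 60. That mean mixes a replicate with peaks in every part but part 9 and 2 that cover parts 4 to 6.

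Replicate 1 alone gave closer matches and 0 of the same 5 IDs, an alternative chosen after seeing the data. ENSG00000069667, at chr15:60816783-61520627 on the minus strand, was closest, at 7.08%. It was followed by ENSG00000185760 at 12.0%, ENSG00000102466 at 13.2%, ENSG00000154654 at 14.0% and ENSG00000204442 at 15.4%, against a median of 35.6%. A 5' lean in replicate 1 was thus common among long regions: parts 1 to 3 held a median of 54.7% of the reads over the 60 IDs, and 14 of them exceeded the 73.9% of NRG1. Part 1 held a median of 23.1%, and 22 of the 60 exceeded NRG1 there.

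In replicate 1 the same stretch of RNA was often listed under 2 IDs. In the first stretch, 91 of the 115 peaks of ENSG00000253974 had exactly the coordinates and reads of a peak of ENSG00000157168, and 114 overlapped one. In the second, 0 of the 57 peaks of ENSG00000253222 matched exactly, 40 overlapped a peak of ENSG00000157168, and 17 overlapped none. Those 17 had 3 to 8 reads. Among 38 peaks of the second stretch that paired with a single NRG1 peak, 37 were wider under ENSG00000253222, 26 had more reads and 0 had fewer. Over that stretch the listed reads came to 631 under ENSG00000253222 and 505 under ENSG00000157168, so the ID under which a position is counted changes its value there.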

How the data were processed

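Each of the 3 libraries has 1 deposited list of peaks, called per replicate and not on pooled replicates. Per the submitters' processing notes the build was hg19, and FastQC, SAMtools, STAR and bedtools are named without versions. Which caller and annotation made the peaks is not given in the sources used here. Beside each peak the authors deposited a p-value, always below 0.05. The peak name ends in a whole number of at least 3, read as the reads of the peak; its Spearman correlation with the p-value inside the interval was -0.996, -0.977 and -0.986 in replicates 1, 2 and 3. That reading is an inference on which all read values depend.

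Same-strand peaks overlapping by at least 1 nt were merged within a replicate into clusters, and across replicates into loci. Shares were divided by all listed reads. Merging, sharing and profiles were tested on simulated data with known answers. Python 3.11.15, pandas 2.3.3, NumPy 2.4.6 and SciPy 1.17.1 were used, with exact Clopper-Pearson intervals at 95%.

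The region, comparisons and lists were chosen with earlier results of these data known. Loci named are the 5 with the highest mean share in all 3 replicates, the 5 highest in exactly 2, and the 3 highest clusters of each replicate; similar gene IDs are the 5 with the nearest profile. None of the 18 ERBB pathway symbols or 14 cell type marker symbols, and 0 of 13356 gene IDs, could be matched, so the pathway and the identity of the cells were not analysed here.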

Additional observations from a re-analysis of the deposited data

Results flagged for a closer look

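The running numbers in the peak names have gaps, a feature that the comparisons above use at 1 locus only, and there is no control library to set them against. For ENSG00000157168, 35.5% of the numbers up to the highest had no listed peak in replicate 1, 699 of 1967. For ENSG00000253974 the values were 33.9%, 43.2% and 43.8% in replicates 1, 2 and 3. For ENSG00000253222 they were 39.4%, 78.4% and 59.2%, so that in replicate 2 only 8 of 37 numbers were listed. Over all gene IDs, 54.4%, 60.2% and 52.6% of the numbers were not listed in replicates 1, 2 and 3. The cause was not tested.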

How the results depend on the processing

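The 5 results were recomputed under other settings. In 39 cases the value kept its sign and lay within 1 SD of the replicates (for the shared loci, within 1.5 times the count), and in 6 it did not. An SD over 3 such unequal libraries is wide, so staying within it says little: a share of 0.746% and one of 0.223% over the stretches without the 150-read locus both did. The 49 loci in more than 1 replicate became 25 with peaks of at least 5 reads and 29 with the peaks of lower p (up to the median), both through fewer peaks, and ranged from 19 to 32 with 1 replicate left out. Part 1 held 33.8% of the reads with replicate 1 under ENSG00000157168 alone, against a mean of 11.1% that counts replicates 2 and 3 as 0. The 2 stretches, the limit on the rest, the 150-read locus and ENSG00000157168 alone were chosen after seeing the data. NRG1 minus the rest was 14.9 percentage points among clusters of 3 to 4 reads and 7.75 against gene IDs spanning at least 500 kb. No paired analysis was possible because there is 1 group. The low totals of replicate 2, with 8 clusters in the second stretch, limit what its list can show there.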
